A study of Drosophila melanogaster with 8 samples.

Results

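The Z-disc is the plate that anchors the thin filaments of neighbouring sarcomeres, and the genes described here encode its parts together with proteins of the thin filament, of calcium removal and of muscle gene control. The set was chosen by gene name in the deposited table: the muscle LIM protein genes Mlp60A and Mlp84B, the PDZ-domain genes Zasp52, Zasp66 and Zasp67, the alpha-actinin gene Actn, the tropomyosin genes Tm1 and Tm2, the calcium pump gene Ca-P60A and the transcription factor gene Mef2. All 10 were in the table of 13918 genes, all 10 were high enough to be tested, and none shared its values with another gene.

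The animals were fruit flies (Drosophila melanogaster) of a wild-type strain, Canton-S, taken as whole pupae at stage P6 in 2 groups. The first group developed under 3 g, that is hypergravity, and the second, the control, under 1 g. Both were reared at 25 °C with 12 hours of light and 50% humidity, from eggs laid over 48 hours. Neither carried a transgene or a mutation in the labels. Each group had 4 libraries of polyadenylated RNA, each from a pool of 4 whole pupae. Sex and culture of origin are not among the labels used here, and a p-value therefore reflects how much these pools varied, which may be technical. A level is given in transcripts per 1000000 (TPM), which is scaled by transcript length so that genes can be compared, and fold changes are log2 of TPM plus 0.5, 3 g minus control. In whole animals, fewer muscle cells and less RNA per muscle cell cannot be told apart.

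In the pupa most larval muscles are broken down while myoblasts fuse into the fibres of the adult. In a sarcomere, alpha-actinin crosslinks actin at the Z-disc, Zasp proteins of the Alp/Enigma family bind alpha-actinin there, and muscle LIM proteins act as scaffolds near it. Tropomyosin lies along the thin filament and, with troponin, gates the access of myosin to actin. The calcium pump returns calcium to the sarcoplasmic reticulum so that muscle can relax. Mef2 is a MADS-box transcription factor required for muscle differentiation in the fly.

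The libraries were unequal. Control replicate 4 was the highest control for 9 of the 10 genes, as it was for 17.7% of all 12044 genes tested. Its level was between 1.61 times (Zasp67) and 3.16 times (Tm2) the mean of the other controls, while Mef2 was lowest there at 0.724 times that mean. Control replicate 1 was the lowest control for 8 of the 10, and 3 g replicate 3 the lowest pool at 3 g for 7. For these pools the share over all genes was not counted. Together the 10 genes made up 0.0921% to 0.121% of all TPM at 3 g, against 0.166% to 0.487% in the controls.

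Of the 10 genes, 3 fell at 3 g (Mlp60A, Mlp84B and Tm2), 0 rose and 7 did not pass an adjusted p of 0.05 (limma, adjusted over all 12044 genes tested). Among all genes tested 4.28% passed, 2.06% as lower and 2.23% as higher. The 3 genes had a fitted log2 change of -2 or less, as did 1.03% of all genes. The groups did not overlap for 5 of the 10 genes, all lower at 3 g and none higher, against 6% lower and 6.49% higher among all genes. An unadjusted p under 0.05 was reached by 6 of the 10 as lower and 0 as higher (limma), and by 16.3% of all genes, 7.68% as lower and 8.58% as higher. Leaving out control replicate 4 gave 4 genes that fell, and leaving out control replicate 1 gave 3. The count was 2 when 3 g replicate 2 or 4 was left out, 1 for 3 g replicate 1 or 3 or control replicate 3, and 0 for control replicate 2. The median change of the 10 was -0.95, beside -0.02 over all genes tested, and -0.59 without control replicate 4. The list was chosen with earlier results of these data known, so these counts describe it and are not independent evidence of a direction.

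**Figure D1:**
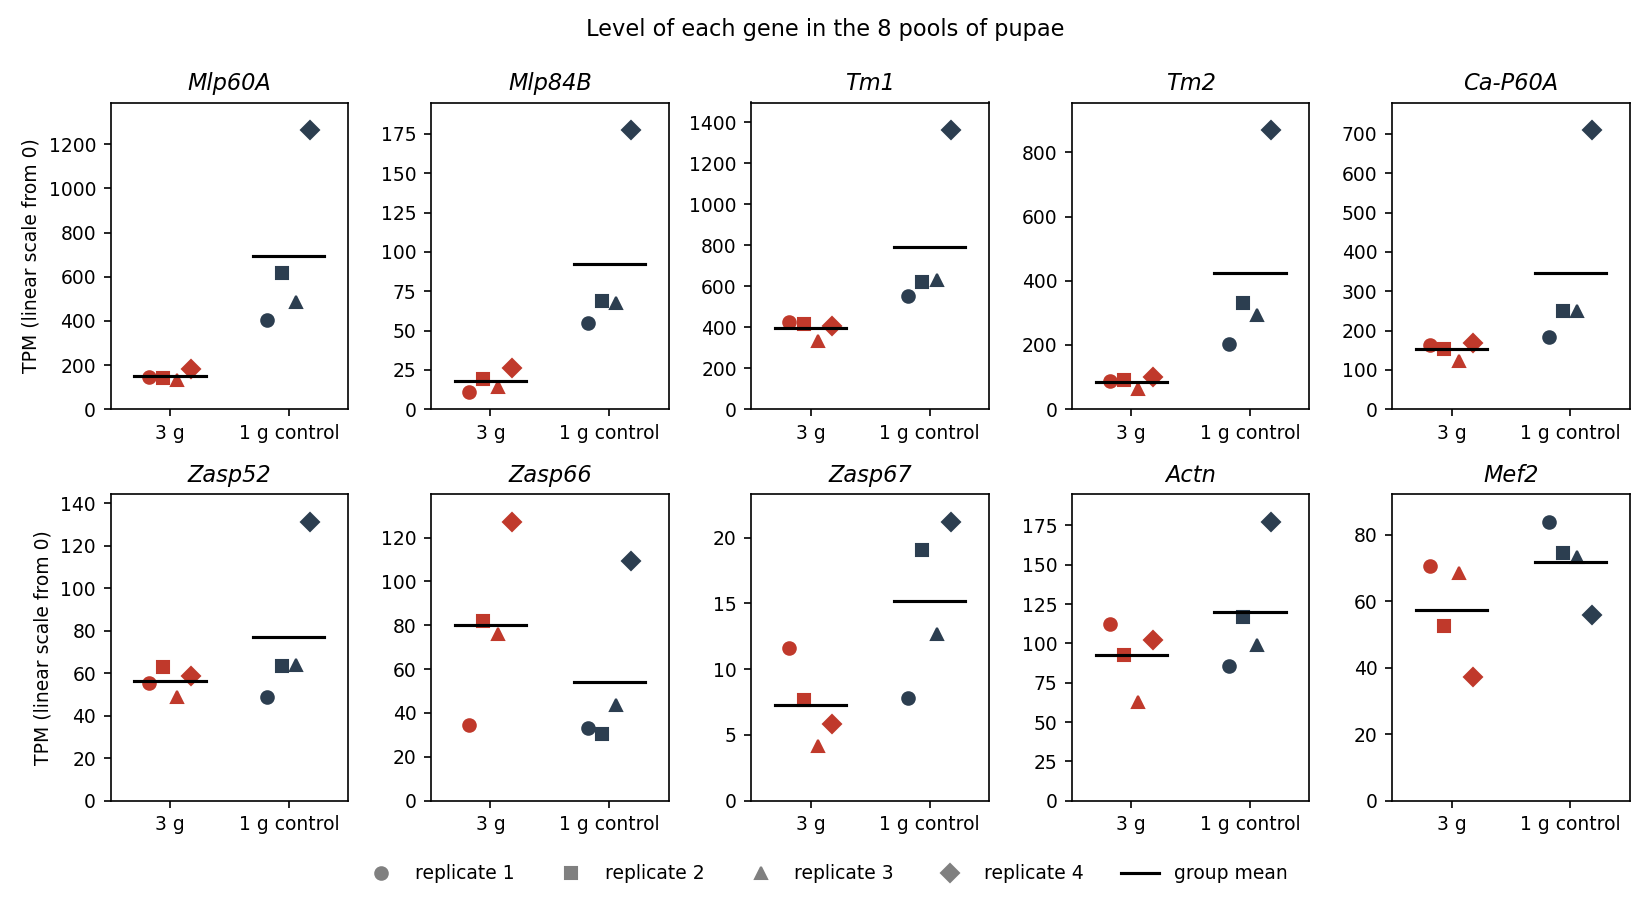
Level of each of the 10 genes in TPM (linear axes that start at 0) in the 4 pools at 3 g (red) and the 4 control pools (dark blue). Each symbol is 1 pool, with the shape giving its replicate number, and the black bar is the group mean. The groups do not overlap for Mlp60A, Mlp84B, Tm1, Tm2 and Ca-P60A, and control replicate 4 is the highest control in every panel except that of Mef2.

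Both muscle LIM protein genes fell at 3 g. Mlp60A, which encodes a muscle LIM protein, had 145, 139, 129.9 and 181 TPM in the pools at 3 g, against 404, 617, 483 and 1263 TPM in the controls. The highest pool at 3 g was below the lowest control by a wide margin. The log2 change was -2.08 ± 0.33 (SE, n = 4 each, limma adjusted p = 0.0158), with means of 149 ± 22.6 TPM at 3 g and 692 ± 391 TPM in controls (SD). Mlp84B, whose protein carries several LIM domains and lies at the edge of the Z-disc, had 10.96, 19.3, 14.2 and 26.5 TPM at 3 g, against 54.8, 68.6, 67.7 and 177 TPM in controls. Here too every pool at 3 g was below every control, and control replicate 4 stood far above the other controls. Mlp84B changed by -2.25 ± 0.41 on the log2 scale (SE, adjusted p = 0.0255, limma), and missed the threshold without 3 g replicate 1 or 3 or control replicate 2 or 3 (adjusted p up to 0.0763). Mlp60A missed it only without control replicate 2 (adjusted p = 0.0635). In each library Mlp60A was far more abundant than Mlp84B: it made up 87.3% to 93.0% of the summed level of the pair at 3 g, against 87.7% to 90.0% in the controls. The ratio of the pair did not differ detectably between 3 g and control, at a log2 difference of 0.18 (exact permutation test, two-sided, p = 0.714 and adjusted p = 0.714 over 7 ratios). Without 3 g replicate 1 that difference was -0.01.

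The fitted changes of the tropomyosin genes were unequal, but the test of their ratio, given below, did not pass after adjustment. Tm2, which encodes a muscle tropomyosin of 284 residues in each of its annotated forms, had 89.03, 91.8, 62.8 and 99.95 TPM at 3 g, against 202, 329.99, 293 and 868 TPM in controls. No pool at 3 g reached the lowest control. Its log2 change was -2.09 ± 0.42 (SE, adjusted p = 0.0336, limma), and it missed the threshold without any 1 of the pools at 3 g, or control replicate 2 or 3 (adjusted p up to 0.101). Tm1, which makes muscle tropomyosin and also forms used in the cytoskeleton of other cells, had 426, 415, 331 and 408 TPM at 3 g, against 554, 622, 631 and 1360.5 TPM in controls. The groups again did not overlap, yet the change of -0.91 ± 0.28 (SE) did not pass (adjusted p = 0.133, limma). Without control replicate 4 the spread among the controls was smaller, and Tm1 passed at a smaller change of -0.61 (adjusted p = 0.0455).

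Within each library Tm1 was higher than Tm2. The ratio of Tm1 to Tm2 was 4.78, 4.52, 5.28 and 4.08 at 3 g, against 2.75, 1.88, 2.15 and 1.57 in controls. Tm1 thus made up 82.2 ± 1.57% of the summed tropomyosin level at 3 g and 67.0 ± 5.15% in controls (SD, n = 4 each), with no overlap between the groups. The log2 difference of this ratio, 1.18, had an exact permutation p of 0.0286 (two-sided), the smallest that the 70 splits of 8 libraries can give. Its adjusted p over 7 ratios was 0.1, which does not pass. At that smallest p a ratio can pass only if most of the 7 reach it too. The adjusted p therefore says little about this pair alone. A factor common to a library cancels in such a ratio, apart from the pseudocount.

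The sarcoplasmic calcium pump gene Ca-P60A, named SERCA in the current annotation, had 164, 153, 123 and 167 TPM at 3 g, against 182, 249.8, 249 and 709 TPM in controls. The groups did not overlap, although the highest pool at 3 g and the lowest control were close together. The change of -0.99 ± 0.39 (SE) did not pass (adjusted p = 0.248, limma), and it was -0.57 without control replicate 4. The ratio of Ca-P60A to Tm2 was 1.84, 1.67, 1.96 and 1.67 at 3 g, against 0.904, 0.757, 0.848 and 0.817 in controls. This ratio varied less among the pools of a group than the level of either gene did in the controls, and control replicate 4 lay inside the range of the other controls. Its log2 difference was 1.1 (exact permutation test, two-sided, p = 0.0286, the smallest possible, adjusted p = 0.1 over 7 ratios). The limit given above for the adjusted p of Tm1 to Tm2 holds here as well. Both differences restate the unequal fitted changes of the genes in the pair. The share of other gene pairs whose ratios do not overlap was not counted.

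**Figure D2:**
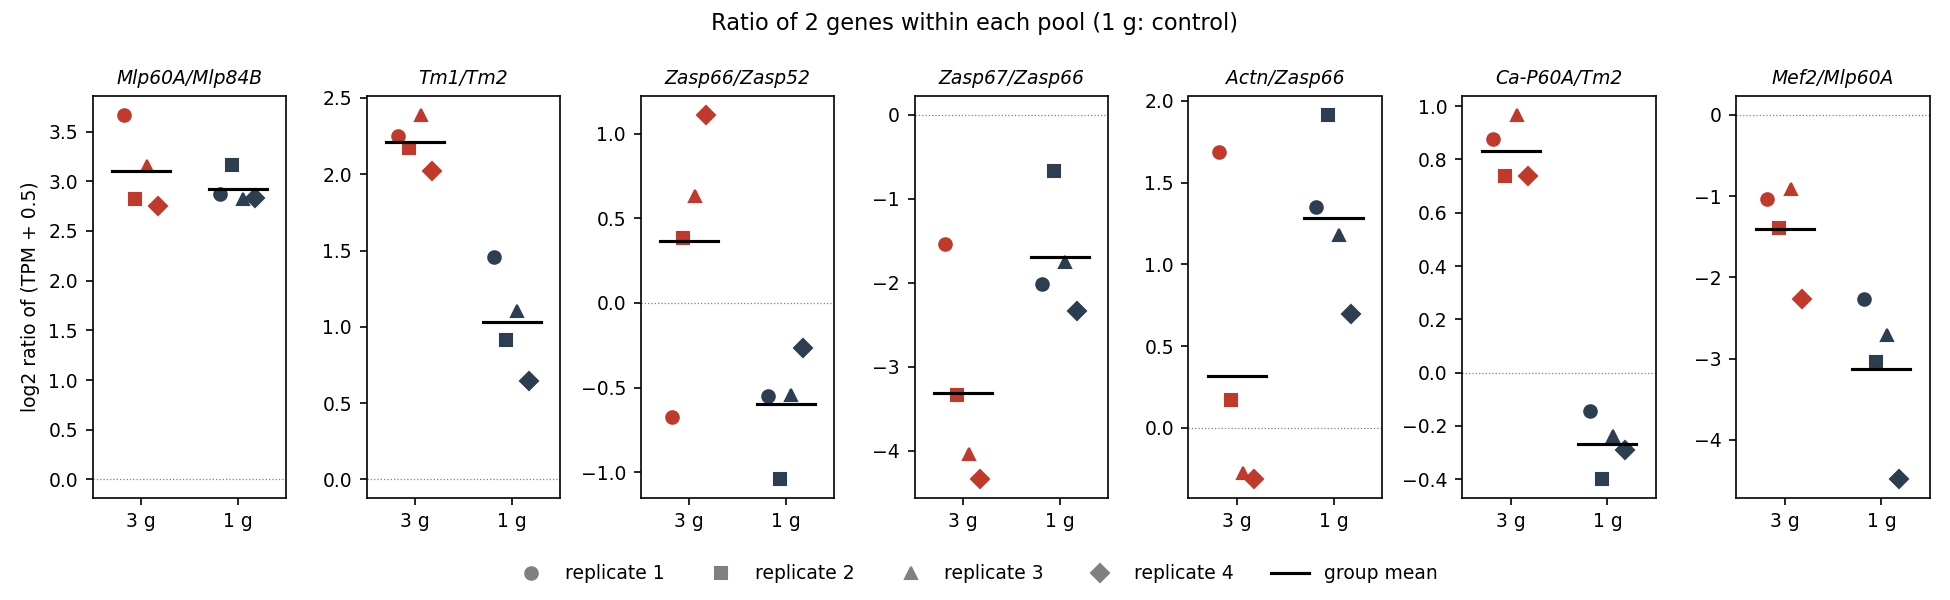
Log2 ratio of (TPM + 0.5) for 7 pairs of the genes in each pool at 3 g (red) and control pool at 1 g (dark blue), with each symbol 1 pool and the bar the group mean. The groups do not overlap for Tm1/Tm2 and Ca-P60A/Tm2, overlap for the other ratios, and lie close together for Mlp60A/Mlp84B (log2 difference 0.18).

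The Zasp genes and Actn, which together build the Z-disc, held 0 genes past the threshold (limma), and of the 4 only Zasp67 had an unadjusted p under 0.05. Zasp52 had 55.5, 62.8, 48.7 and 58.5 TPM at 3 g, against 48.9, 63.5, 63.8 and 131 TPM in controls. The pools at 3 g lay within or just under the range of control replicates 1 to 3, and only control replicate 4 stood apart. Its log2 change was -0.34 with a 95% interval of -1.0 to 0.31 (adjusted p = 0.677, limma), and it was -0.05 without control replicate 4 and -0.53 without control replicate 1. Actn had 112, 92.5, 62.6 and 102 TPM at 3 g, against 85.7, 117, 99.2 and 177 TPM in controls. The groups overlapped, and the change was -0.35 with a 95% interval of -0.96 to 0.26 (adjusted p = 0.663, limma). It was -0.14 without control replicate 4 and -0.17 without 3 g replicate 3. Neither interval reaches the change fitted for Mlp60A, -2.08.

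Zasp66 was the one gene of the 10 with a positive fitted change. It had 34.6, 82.1, 75.8 and 127 TPM at 3 g, against 33.3, 30.6, 43.6 and 109 TPM in controls. Replicates 2, 3 and 4 at 3 g were above control replicates 1, 2 and 3, while 3 g replicate 1 lay with these controls and control replicate 4 with the pools at 3 g. The change of 0.62, with a 95% interval of -0.54 to 1.77, did not pass (adjusted p = 0.674, limma). With 1 library left out it ranged from 0.35 (without 3 g replicate 4) to 1.02 (without control replicate 4), and it was 0.97 without 3 g replicate 1. None of these passed. Zasp67, the lowest of the 10 genes in both groups, had 11.6, 7.69, 4.14 and 5.80 TPM at 3 g, against 7.83, 19.0, 12.6 and 21.2 TPM in controls. A total of 3 of the 4 pools at 3 g lay below every control, and the change of -1.0 ± 0.38 (SE) did not pass (adjusted p = 0.234, limma).

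The makeup of the Zasp set differed between pools. Zasp66 made up 34.0%, 53.8%, 58.9% and 66.4% of the summed level of the 3 Zasp genes at 3 g, against 37.0%, 27.0%, 36.3% and 41.7% in controls. Zasp67 made up 11.4%, 5.04%, 3.22% and 3.03% at 3 g, against 8.70%, 16.8%, 10.5% and 8.10% in controls. In both cases 3 g replicate 1 lay inside the range of the controls and the other pools at 3 g lay outside it. The log2 differences were 0.96 for the ratio of Zasp66 to Zasp52, -1.62 for Zasp67 to Zasp66 and -0.97 for Actn to Zasp66. None of the 3 passed (exact permutation tests, two-sided, p = 0.114 each, adjusted p = 0.133 over 7 ratios).

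Mef2 had 70.6, 52.6, 68.5 and 37.3 TPM at 3 g, against 83.8, 74.3, 73.2 and 55.8 TPM in controls. The groups overlapped, since control replicate 4 was below both 3 g replicate 1 and 3 g replicate 3. Its change was -0.35 with a 95% interval of -0.88 to 0.17 (adjusted p = 0.569, limma), and -0.16 without 3 g replicate 4. The pool with the least Mef2 was replicate 4 in both groups, which held the most Mlp60A, Mlp84B and Tm2 of its group. Tm1, Actn and Zasp67 were highest in 3 g replicate 1 among the pools at 3 g, as Mef2 was. The ratio of Mef2 to Mlp60A was 0.486, 0.378, 0.527 and 0.206 at 3 g, against 0.208, 0.121, 0.152 and 0.0442 in controls. The log2 difference of 1.72 did not pass (exact permutation test, two-sided, p = 0.0571, adjusted p = 0.133 over 7 ratios).

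**Figure D3:**
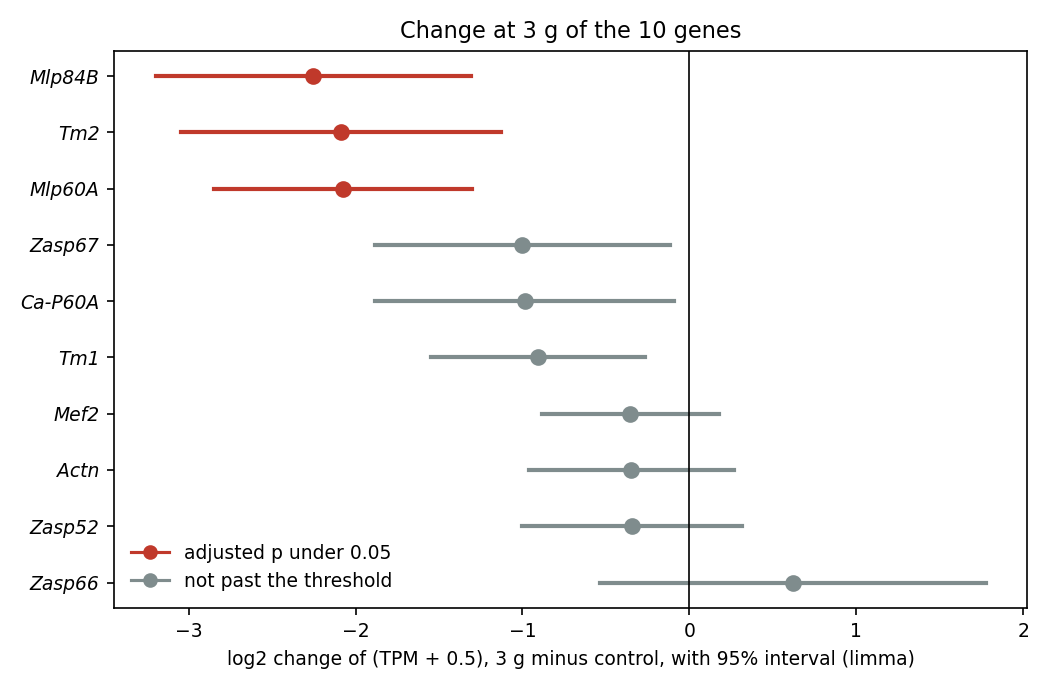
Fitted log2 change of (TPM + 0.5), 3 g minus control, of each of the 10 genes with its 95% interval from limma. Red marks the 3 genes past an adjusted p of 0.05, at -2.25 to -2.08, and grey the 7 that did not pass, of which Zasp66 (0.62) lies above 0.

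The order of levels also differed between the groups. At 3 g Tm1 led at 395 ± 43.0 TPM (SD, n = 4), above Ca-P60A (152 ± 19.99 TPM) and Mlp60A (149 ± 22.6 TPM). Ca-P60A and Mlp60A were each the higher one in 2 of the 4 pools at 3 g and could not be ordered. Below Mlp60A came Actn, Tm2, Zasp66, Mef2 and Zasp52 at means of 56.4 to 92.4 TPM, neighbours whose ranges overlapped. Mlp84B (17.7 ± 6.76 TPM) and Zasp67 (7.31 ± 3.21 TPM) were the lowest. In the controls the order was Tm1 (792 ± 381 TPM), Mlp60A (692 ± 391 TPM), Tm2 (423 ± 302 TPM) and Ca-P60A (348 ± 243 TPM). The SDs of these 4 genes in the controls overlap, but each gene was above the next in 4 of 4 control pools. Actn, Mlp84B and Zasp52 followed and kept their order in every control, while Mef2 and Zasp52 did not. In 8 of the 10 genes the coefficient of variation was larger in the controls than at 3 g, as it was for 41.3% of all genes tested. That count includes control replicate 4. Without it the coefficient was larger in the controls for Mlp60A, Zasp52, Tm2 and Ca-P60A. It was then smaller in the controls for Mlp84B, Zasp66, Zasp67, Actn, Tm1 and Mef2. The share over all genes was not counted without that library. Without that library the controls had 602 ± 42.0 TPM for Tm1 and 275 ± 66.0 TPM for Tm2 (SD). The pools at 3 g had 395 ± 43.0 TPM for Tm1 and 85.9 ± 16.1 TPM for Tm2 (SD).

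The genes differ in how many products a single gene-level value sums over. In a current Ensembl annotation, which need not be the one the authors used, the genes that fell had 4 (Mlp60A), 3 (Mlp84B) and 6 (Tm2) transcripts with 2, 1 and 2 coding forms. Tm1 had 18 transcripts with 14 coding forms, Zasp52 had 22 with 21, Zasp66 had 12 with 11 and Mef2 had 11 with 11. Actn and Ca-P60A had 9 transcripts each, with 4 and 3 coding forms, and Zasp67 had 4 with 4. The table gives no level per form, so a change in one form of Tm1 or Zasp52 is summed with the others. Exons of Actn overlap those of usp on the same strand and of east and CG4313 on the other. Exons of Tm1 overlap those of l(3)neo43 and exons of Ca-P60A those of CG2812, each on the other strand. These neighbours were lower than the gene they overlap in every library, at most 42.9 TPM for usp, 32.1 TPM for east, 9.52 TPM for CG4313, 44.3 TPM for l(3)neo43 and 24.8 TPM for CG2812. The sources used here do not say how the authors divided reads between overlapping genes, or whether they counted by strand, so these values may hold reads of both genes of a pair.

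The contractile filaments that join at the Z-disc were described by further lists. Of 14 thin filament genes (muscle actins, troponins, tropomodulin and capping proteins), 6 fell, 0 rose and 8 did not pass (limma), with a median change of -1.73. Among them Act79B, which encodes a muscle actin, had 163 ± 35.3 TPM at 3 g and 852 ± 463 TPM in controls. TpnC4 and TpnC25D, which encode troponin C, fell, with log2 changes of -2.20 and -2.14 (adjusted p = 0.0097 and 0.0174, limma). Of 11 thick and connecting filament genes 4 fell, 0 rose and 7 did not pass, with a median of -1.52. They were led by fln, the gene of the myosin-binding protein flightin, and included Mlc2, the myosin regulatory light chain gene (355 ± 60.2 TPM at 3 g and 1642 ± 1003 TPM in controls), and the obscurin gene Unc-89 (9.998 ± 1.54 TPM at 3 g and 42.5 ± 22.7 TPM in controls). Without control replicate 4, 7 thin and 4 thick filament genes fell, without control replicate 2, 1 and 0, and without each of the 3 g replicates or control replicate 3, 3 to 4 thin and 1 to 2 thick filament genes. Without control replicate 1, 6 of each fell and 1 thin filament gene rose, the tropomodulin gene tmod, which was chosen after its values were seen (577 ± 79.2 TPM at 3 g and 352 ± 68.5 TPM in controls, adjusted p = 0.0584 over all 8 libraries and 0.0498 without that one, limma). Whether these lists differ from the 10 genes was not tested.

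Lists of Z-disc partners, other LIM genes and calcium handling held 1 call each at most. Of 16 genes of Z-disc partners and muscle attachment, such as filamin, talin and integrin genes, 0 passed in either direction (limma, unadjusted p under 0.05 for 1 lower and 0 higher), with a median of 0.0096. Those with the smallest p were thin (tn), which encodes a muscle protein of the TRIM32 family (32.8 ± 5.04 TPM at 3 g and 42.3 ± 3.78 TPM in controls), and the talin gene rhea (66.8 ± 6.44 TPM at 3 g and 55.0 ± 5.97 TPM in controls). Of 8 other LIM and calponin-family genes 1 fell, 0 rose and 7 did not pass. It was CG33521, with 54.4 ± 8.58 TPM at 3 g and 130 ± 31.8 TPM in controls (log2 change -1.23, adjusted p = 0.018, limma), and 0 of the list fell without control replicate 2 or 3. Of 12 genes of calcium handling 1 fell, 0 rose and 11 did not pass. This was RyR, the ryanodine receptor that releases calcium from the same store that Ca-P60A fills, at 9.98, 7.71, 7.31 and 6.77 TPM at 3 g, against 14.2, 22.6, 19.6 and 34.1 TPM in controls. No pool at 3 g reached the lowest control, and RyR changed by -1.40 ± 0.26 on the log2 scale (SE, adjusted p = 0.0268, limma). Without 3 g replicate 2, 3 or 4 or control replicate 2 or 3, 0 genes of the calcium list passed, and without 3 g replicate 1, 2 did.

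The lists of muscle transcription and splicing factors and of myoblast fusion held 0 genes past the threshold (limma). Of 18 muscle transcription and splicing factor genes 0 passed (limma, unadjusted p under 0.05 for 0 genes), with a median of -0.05 beside the -0.35 of Mef2. The smallest p were those of lms, a homeobox gene of muscle (1.06 ± 0.319 TPM at 3 g and 1.74 ± 0.947 TPM in controls), and A2bp1, the Rbfox splicing factor gene (42.9 ± 5.36 TPM at 3 g and 50.9 ± 10.2 TPM in controls). Of 16 myoblast fusion genes 0 passed (limma, unadjusted p under 0.05 for 1 higher and 0 lower), with a median of 0.02. The actin regulators WASp (39.3 ± 4.17 TPM at 3 g and 31.3 ± 2.52 TPM in controls) and Arp2 (88.5 ± 8.41 TPM at 3 g and 74.1 ± 9.91 TPM in controls) had the smallest p there.

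**Figure D4:**
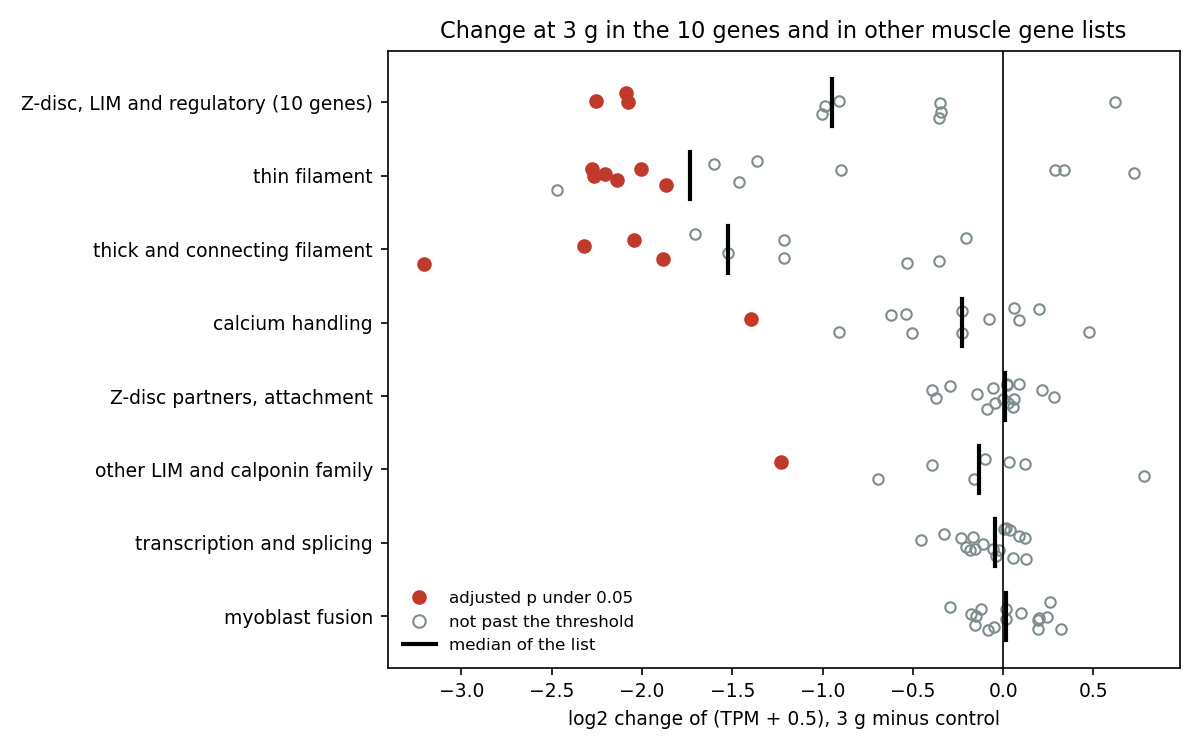
Fitted log2 change of (TPM + 0.5), 3 g minus control, of each tested gene in the Z-disc, LIM and regulatory set and in 7 other lists of muscle genes, 1 point per gene, filled red where the adjusted p was under 0.05. The black bar is the list's median, at -0.95 for the 10 genes (-0.59 without control replicate 4), -1.73 and -1.52 for thin and for thick and connecting filaments, and between -0.23 and 0.02 for the others.

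Some lists of markers of other cells and of developmental timing held genes past the threshold, and others did not. Of 5 markers of indirect flight muscle 2 fell (fln and TpnC4, both also counted in the filament lists). The 5 summed to 448 to 905 TPM at 3 g, against 1041 to 4040.5 TPM in controls. The largest part of the sum in every pool was Act88F, which did not pass (adjusted p = 0.19, limma). It overlapped between groups, at 247 to 743 TPM at 3 g and 510 to 2153 TPM in controls. The changes of salm and Strn-Mlck were -0.16 and -0.20, and neither passed. Of 8 markers of adult muscle precursors 0 passed (limma, 0 at an unadjusted p under 0.05). Their sum was 119 to 161 TPM at 3 g, against 116 to 183 TPM in controls, with mbc and sns the nearest to the threshold (adjusted p = 0.594 and 0.657, limma). Of 20 salivary gland markers of late larvae and prepupae, 13 were high enough to be tested and these rose. Of the 13, 5 averaged under 1 TPM in controls and reached the filter only through their level at 3 g, so they had to differ. Without a filter 14 of the 20 rose. The list had a summed level of 13332 to 32276 TPM at 3 g, against 86.8 to 456 TPM in controls. The smallest p were those of Eig71Eb, Eig71Ec and Eig71Ef, at log2 changes of 9.20, 9.46 and 9.32, and 3 others of the 20 (ng1, ng2 and ng3) were listed at 0 in every library. Of 8 tested fat body markers 2 rose (Lsp1gamma and Fbp1), with a list sum of 6607 to 19218 TPM at 3 g, against 2122 to 4186 TPM in controls. Of 18 respiratory chain genes 5 fell, among them mt:ND4, CoVb and Oscp. An unadjusted p under 0.05 was reached by 17 of the 18 as lower and 0 as higher (limma), beside 7.68% and 8.58% of all genes. The sum of all 18 was 50940.0 to 56009 TPM at 3 g and 90786 TPM in control replicate 4. In control replicates 1 to 3 it was 65869 to 70850.3 TPM. Most of it came from mt:CoI, mt:CoII, mt:CoIII, mt:Cyt-b and mt:ND4, transcripts of the mitochondrial genome, of which only mt:ND4 passed. Of 8 neuronal markers 2 fell (Snap25 and para), with a sum of 150.3 to 224 TPM at 3 g, against 231 to 263 TPM in controls. Markers of the male germline (10 tested) and of hemocytes (5 tested) had 0 past the threshold (limma, unadjusted p under 0.05 for 0 germline and 2 hemocyte markers, 1 lower and 1 higher). The germline markers summed to 356 TPM in the lowest pool at 3 g, replicate 2, and 1884 TPM in the highest, against 1195 to 2534 TPM in controls. In 3 g replicate 2 Mst87F had 164 TPM and dj 52.0 TPM. The other pools at 3 g had 816 to 854 TPM of Mst87F and 280 to 332 TPM of dj. Hemocyte markers summed to 87.7 to 129.8 TPM at 3 g, against 119 to 141 TPM in controls. With 1 library left out, 11 to 13 timing genes rose. The respiratory chain genes that fell were 11 without control replicate 1, 6 without control replicate 4 and 0 without any other single library. Neuronal markers that fell were 5 without 3 g replicate 1, 1 without control replicate 1 or 4 and 0 without any other, and flight muscle markers were 1 without control replicate 2. The part of timing, cell makeup or any of these markers in the lower levels of Mlp60A, Mlp84B and Tm2 was not tested.

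The genes whose levels followed the mean of the 10 genes most closely were sought over the 8 libraries after centring each group on its own mean. The highest Pearson correlations among other genes with at least 5 TPM were those of up (0.99), the troponin T gene, and wupA (0.99), the troponin I gene. CG15293 (0.98), the photoreceptor myosin gene ninaC (0.98), the ATP synthase subunit gene sun (0.98) and the glutamate receptor subunit gene clumsy (0.98) followed. All share control replicate 4 as their highest library, and without it the correlations were 0.97 for up, 0.93 for wupA, 0.99 for CG15293, 0.93 for ninaC, 0.87 for sun and 0.98 for clumsy. The troponin genes stood at 152 ± 32.4 TPM at 3 g and 682 ± 448 TPM in controls (up), and at 187 ± 45.1 TPM at 3 g and 762 ± 502 TPM in controls (wupA). By contrast CG15293 (0.97 to 2.54 TPM) and clumsy (1.71 to 2.84 TPM) were low at 3 g. Those 2 genes reached the mean of 5 TPM only through the controls.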

How the data were processed

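Per the labels, RNA was extracted from pools of 4 pupae and made into TruSeq libraries, sequenced from both ends (100 bp each) on 1 lane. Per the submitters' processing notes, the tools, with roles not stated, were DESeq, eXpress 1.5.1, Bowtie2 2.1.0, Trimmomatic 0.30 and CASAVA. The sources used here do not name the build, annotation or strand setting. The deposited values are whole numbers, treated as a score: the table is named normalized TPM, and each of the 8 columns sums to 1000000 after division by 100, so values were divided by 100 and read as TPM. Since TPM holds no read totals, depth is unknown and counting intervals are left out.

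The 12044 of 13918 genes averaging 1 TPM or more were fitted with limma 3.58.1 in R 4.3.3 on log2(TPM + 0.5), with an intensity trend and no covariate, p-values adjusted by Benjamini and Hochberg over all of them, threshold 0.05. The fit was tested on simulated data with noise drawn separately for each gene. Of 50 genes changed 2-fold 24 were called, as were 41 of 50 at 4-fold, 46 at 8-fold and 48 at 16-fold. Of 170 calls 11 were false. A shift shared by many genes of 1 library, as in control replicate 4, was not simulated. A set of 7 ratios, between members taken to have related roles, was tested by exact permutation (scipy 1.17.1). Figures used matplotlib 3.10.9.

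The 10 genes, the lists and the alternatives were chosen with earlier results of these data known. Nothing shows that the pairs for the ratios were chosen without them. Named from each list were the 3 genes of smallest p past the threshold (where none passed, the 2 of smallest p), as well as the 6 genes most like the mean of the 10. Of 196 list entries 7 were matched through a RefSeq synonym (assembly Release 6 plus ISO1 MT) and 6 were not matched and not analysed here. Alternatives left out libraries or changed the pseudocount, filter, scaling or variance model. Replicate numbers were not taken as pairs, since the labels do not say what they mark.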

Additional observations from a re-analysis of the deposited data

Results flagged for a closer look

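In groups of 4 pools, a value was picked out where its gap to the nearest other pool was over the 95% critical value of Dixon's test, as a share of the group's range. Gene levels were looked at as TPM and ratios as log2, in 34 groups (10 genes and 7 ratios in 2 groups each). Chance gives about 1 in 20 only for independent groups of normal values, and these groups share pools and genes. Of the 34 groups 5 met the rule. In 4 of them the pool was control replicate 4, as the highest control: 177 TPM for Mlp84B (gap 0.888 of the range), 109 TPM for Zasp66 (0.834), 1360.5 TPM for Tm1 (0.904) and 709 TPM for Ca-P60A (0.872). The fifth was the log2 ratio of Mlp60A to Mlp84B in control replicate 2, at 3.16 against 2.83 to 2.87 in the other controls (0.867). Without control replicate 4 the changes were -1.88 for Mlp84B (adjusted p = 0.0257), 1.02 for Zasp66 (0.328), -0.61 for Tm1 (0.0455) and -0.57 for Ca-P60A (0.153, limma).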

How the results depend on the processing

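The log2 change of each of the 10 genes kept its sign under all 19 alternatives. Of the genes that fell, Mlp60A passed under 18 (-2.29 to -1.71, missing at adjusted p = 0.0635 without control replicate 2), Mlp84B under 15 (-2.47 to -1.88) and Tm2 under 11 (-2.37 to -1.66). The count of the 10 lower was 0 to 4 with 1 library left out: 4 without control replicate 4 (Tm1 added), 1 (Mlp60A) without 3 g replicate 1 or 3 or control replicate 3, and 0 without control replicate 2 (limma, unadjusted p under 0.05 for 5 lower and 0 higher). The count higher was 0 throughout. Without both 3 g replicate 2 and control replicate 4, the 3 genes Mlp60A, Mlp84B and Tm2 passed. Over all genes 516 passed, 162 to 479 with 1 library left out, 228 without both of those libraries and 1193 with sample weights, whose estimation did not fully converge. With the replicate number as a block 147 passed, 2 of the 10 among them, as Tm2 did not (adjusted p = 0.0938). Deviations of same-numbered pools correlated at -0.38, -0.52, 0.06 and 0.08, and 0 of 8 libraries matched best with its own number, so numbers were not taken as pairs. After median-of-ratios rescaling Tm2 missed the threshold (adjusted p = 0.0578). Under that scaling 0 respiratory chain genes, 0 neuronal markers, 4 thin filament and 2 thick and connecting filament genes fell. After quantile normalization these counts were 7, 0, 6 and 3, and with the replicate block 0, 0, 3 and 0 (limma). The log2 differences of ratios had the signs of the main values except Mlp60A to Mlp84B without 3 g replicate 1 (-0.0134, up to 0.292 with another library left out). With 1 library left out they ranged from 1.05 to 1.32 (Tm1 to Tm2) and 1.05 to 1.14 (Ca-P60A to Tm2), where no smaller p than 0.0571 is possible. Of 46 single genes over 872 refits, 737 results kept sign and side of the threshold, 125 lost and 8 gained a call, and Mst87F (0.0059) and dj (0.0804), male germline genes at 668 ± 337 and 244 ± 129 TPM at 3 g and 967 ± 317 and 339 ± 111 TPM in controls, changed sign without both libraries. The cause of these shifts was not tested. Depth is unknown, so no limit from counting can be given.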
